A study of Mus musculus with 60 samples.

Results

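The genes that make, transport and sense γ-aminobutyric acid (GABA) and those that mark cortical interneurons were followed in the prefrontal cortex of young mice. The mice were labelled heterozygous for Trip12 or wild type and had been exposed to a drug or vehicle through the dam's milk. The set holds 31 of the 18088 genes in the deposited table and was chosen by gene symbol in 7 classes. These are 9 GABA-A receptor subunits, 2 GABA-B receptor subunits, 2 postsynaptic scaffold or adhesion proteins and 2 chloride cotransporters. The others are 4 enzymes and transporters of GABA, 7 interneuron peptides and marker proteins, and 5 transcription factors. All 31 passed the filter on low counts. Messenger RNA of bulk tissue was sequenced from 60 libraries in 12 groups of 5. The groups combine genotype (libraries labelled HT, that is heterozygous, and libraries labelled WT, wild type), treatment (lithium, fluoxetine or vehicle) and sex. All mice were C57BL/6J and were taken on postnatal day 25, after 3 weeks of treatment from postnatal day 3 to day 24 while still suckling. Fluoxetine is an inhibitor of serotonin reuptake, and lithium is a mood stabilizer that inhibits inositol phosphatases and the kinase GSK3. Trip12 encodes a HECT-domain ubiquitin ligase. The labels do not say what the HT allele deletes or changes, and they give no dose, litter, dam or animal number. P-values therefore measure the spread between these libraries, which may be technical in part.

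GABA is made from glutamate by the decarboxylases Gad1 and Gad2, is loaded into vesicles by Slc32a1 and acts on GABA-A receptors, which are chloride channels, and on GABA-B receptors, which couple to G proteins. The direction of the chloride current depends on the importer Slc12a2 and the exporter Slc12a5, whose balance shifts toward export while the cortex matures. Cortical interneurons fall into classes marked by Pvalb, Sst, Vip and other peptides. Genes of the Dlx family specify them before birth and are also active in interneurons that the olfactory bulb receives after birth.

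Counted reads ranged from 25.1 to 36.6 M per library. Depth differed with treatment, at 25.14 to 35.86 M reads (median 32.92) in lithium libraries, 32.65 to 36.62 (34.13) in fluoxetine libraries and 26.59 to 30.99 (28.69) in vehicle libraries. Under lithium it also differed with sex, with group medians of 34.42 (HT) and 34.56 (WT) in females and 29.99 (HT) and 28.73 (WT) in males. The sexes lay closer with fluoxetine and vehicle. Trip12 itself had 5489, 6272 and 6953 normalized counts (lowest, median and highest) in the 30 libraries labelled HT and 4394, 5812 and 6362 in the 30 libraries labelled WT. This total was not lower in HT, so it did not check the genotype labels. The tissue label was checked with marker lists. Markers of cortical projection neurons were abundant in every library (Slc17a7, a vesicular glutamate transporter, had at least 36450 normalized counts), and striatal and olfactory bulb markers varied from library to library. The summed level of 11 olfactory bulb genes ran from 381 to 13597 normalized counts, with the bulb transcription factor Barhl2 at 0 in 2 libraries. The summed level of 17 striatal genes was 15057 to 21826 (median 18629) in lithium libraries, 16010.1 to 31878 (median 18291) in fluoxetine libraries and 14858 to 41464 (median 18436) in vehicle libraries, with Isl1 at 0 in 28 of the 60. Of the 17 striatal markers 10 were called lower with lithium over both genotypes and 12 in libraries labelled HT, and 3 were called lower with fluoxetine in libraries labelled HT. In these comparisons 22.6%, 14.6% and 10.2% of all genes were called in either direction. Of 8 oligodendrocyte markers 7 were called lower with lithium, and 0 of 11 olfactory bulb markers were called in any averaged comparison. The bulb sum was 419.9 to 12434 (median 1297) in libraries labelled HT and 381 to 13597 (median 3335) in libraries labelled WT. Under lithium the medians were 810 and 2547. The striatal sum was 14858 to 41464 (median 18867) in HT and 14963 to 31878 (median 17921) in WT. With so wide a spread, the lack of calls does not show equal bulb content. The libraries WT fluoxetine male replicate 2 and HT vehicle male replicate 1 stood apart in several of the genes described here, and counts that change without them are given both ways. HT vehicle male replicate 1 also differed from its group in tissue markers. On scores of mean log2 marker level, centred over the libraries, it had -0.42 for striatum and 1.99 for bulb. Replicates 2 to 5 of that group had 0.86 to 1.68 and -1.31 to -0.26. Counts without it thus rest on HT vehicle males with higher striatal markers, and the part of this was not tested. The projection neuron score had medians of -0.091 with lithium, 0.095 with fluoxetine and 0.040 with vehicle. For astrocytes they were 0.029, 0.0027 and -0.033. The ranges of the treatments overlapped for both scores, and the part of these cells in the drug differences was not tested.

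With lithium, over both genotypes and sexes, Vip, Cck and Pvalb rose to 1.16-fold, 1.21-fold and 1.23-fold their vehicle levels. The GABA-A subunit gene Gabra2 rose to 1.16-fold, and Gabrg3 and the chloride importer gene Slc12a2 fell to 0.92-fold and 0.90-fold. In libraries labelled HT, Pvalb stood at 0.81-fold its level in libraries labelled WT. With fluoxetine, Gabrb1 (1.10-fold) and Cck (1.13-fold) rose and Gabrd (0.92-fold) and Slc32a1 (0.87-fold) fell. Calb2, Dlx1, Gad1 and Reln, whose levels rose with olfactory bulb markers, varied widely between libraries of the same group and passed in none of the averaged comparisons. Fold changes are on the scale of log2(normalized count + 1), tests are limma's with Benjamini-Hochberg adjustment over the 17804 genes tested, and a gene is called at an adjusted p under 0.05.

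The number of called members lay near or below the share of all genes called in most comparisons. With lithium over both genotypes 6 of the 31 passed (19.4%), where 22.6% of all genes did. Lithium moved 4 members (Gabra2, Slc12a2, Vip and Cck) in libraries labelled HT, against a background of 14.6%. In libraries labelled WT it moved 2 (Pvalb and Vip) against 4.57%. Fluoxetine over both genotypes moved 4 (12.9%) against 14.5%. In libraries labelled HT it moved Slc32a1 alone, 1 member, against 10.2%. In libraries labelled WT limma called 0 members with fluoxetine, where 0.208% of all genes were called, and edgeR or DESeq2 called 0. At an unadjusted p under 0.05 were 2 members, beside 1871 of the 17804 genes tested. Between fluoxetine and lithium 10 members differed (32.3%) against 32.9%. Of these, Gabrb1, Gabrb2, Gabrg3, Gabbr1, Gabbr2 and Slc12a2 were higher with fluoxetine, and Gabrd, Pvalb, Vip and Npy were lower. For genotype, 1 member passed over all treatments against 5.06% and 1 under lithium against 0.573%, Pvalb in both, lower in HT. Limma called 0 under fluoxetine and 0 under vehicle against 0.135% and 0.152%, and edgeR or DESeq2 called 0. At an unadjusted p under 0.05 were 1 and 6 members, beside 2039 and 1575 of the 17804 genes tested. The median log2 fold change of the 31 members was -0.055 with lithium over both genotypes, -0.029 with fluoxetine and -0.045 for genotype over all treatments, beside -0.0018, -0.0034 and 0.0024 over all genes tested. The lithium and fluoxetine comparisons share the 20 vehicle libraries, so their values are not independent of each other.

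Leaving out WT fluoxetine male replicate 2 and HT vehicle male replicate 1 together moved several of these counts (log2 fold changes in parentheses). Both had stood apart in some of these same genes, so calls gained for those genes follow in part from that choice. Fluoxetine then called 5 members in libraries labelled HT, against 17.4% of all genes in the same fit. It called 1 in WT (Npy, -0.17, limma adjusted p = 0.038) against 3.77%, and 7 over both genotypes against 24%. The 7 were Gabra2 (0.19, limma adjusted p = 0.012), Gabra3 (0.082, limma adjusted p = 0.015), Gabrb1 (0.19, limma adjusted p = 0.0002), Gabrg3 (0.12, limma adjusted p = 0.0089), Gabrd (-0.16, limma adjusted p = 0.00039), Slc32a1 (-0.22, limma adjusted p = 0.015) and Npy (-0.12, limma adjusted p = 0.0088), while Cck lost its call. For genotype over all treatments Gabra3 (-0.071, limma adjusted p = 0.03) and Sst (0.18, limma adjusted p = 0.044) joined Pvalb (-0.28, limma adjusted p = 0.0014), against 5.46% of all genes. Under vehicle Gabra2 passed (-0.36, limma adjusted p = 0.016) against 0.584%. HT vehicle male replicate 1, left out here, stood apart in Gabra2 itself (2908, against 1416 to 1563 in the rest of its group). With all libraries the striatal sum had a median of 23530 in HT vehicle and 16910 in WT vehicle. After subtraction of group means Gabra2 had Pearson's r = -0.48 with the striatal score. This was -0.34 without the 2 libraries farthest by that score. The part of striatal tissue was not tested.

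**Figure D1:**
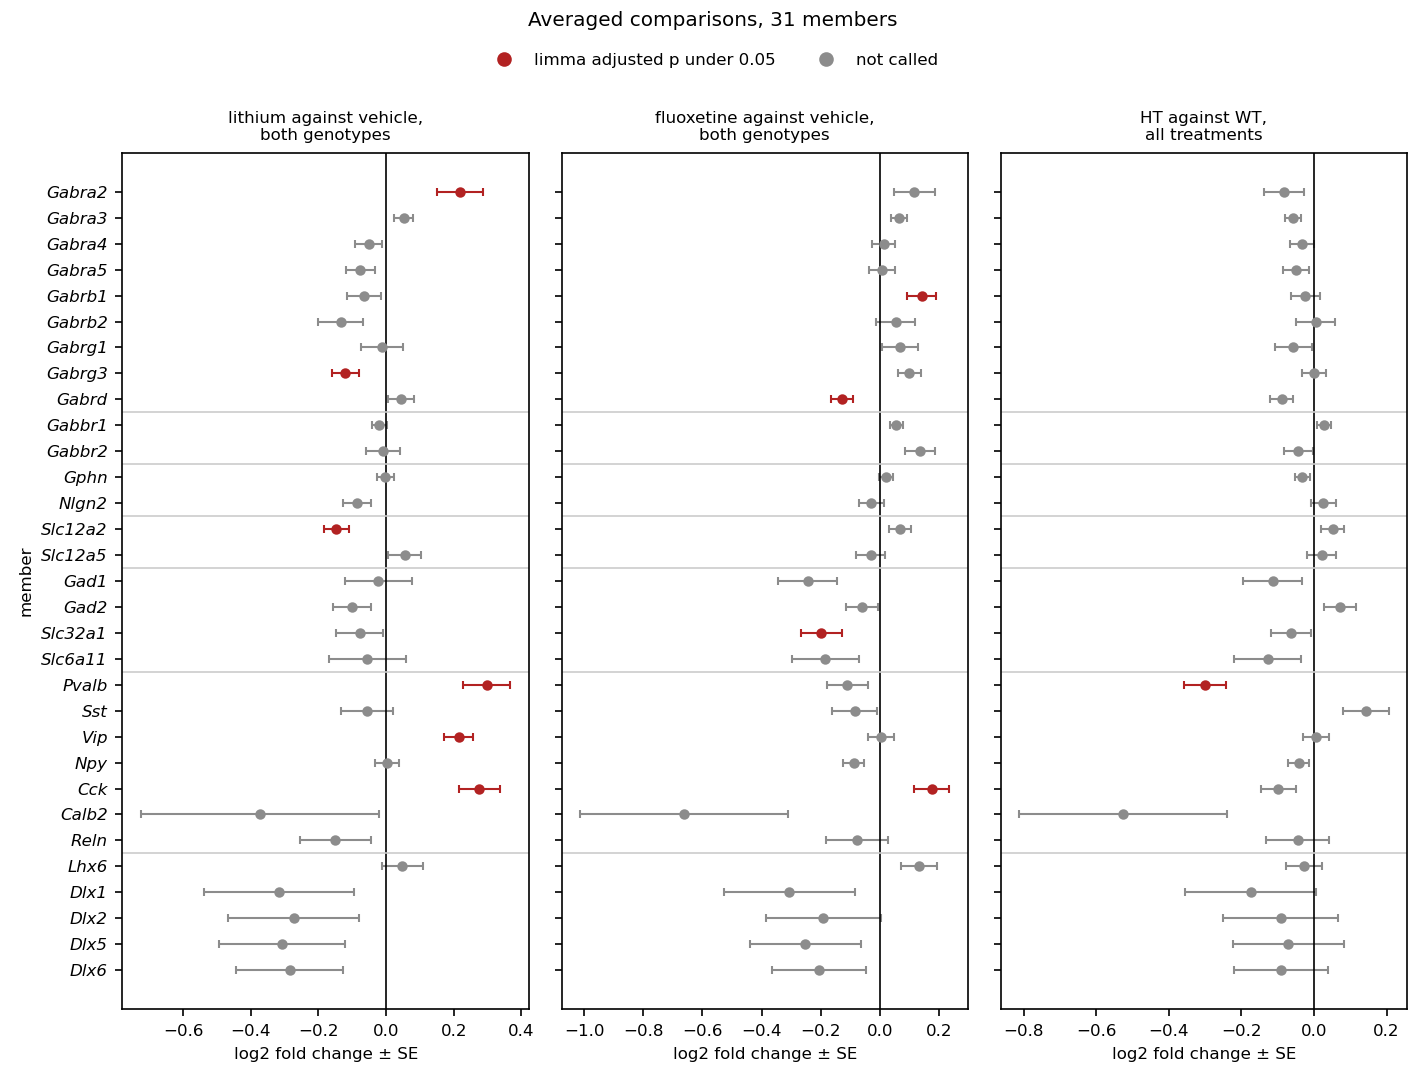
Log2 fold change with standard error (horizontal axis) of each of the 31 genes (down the page, grouped by class) for lithium against vehicle, fluoxetine against vehicle and libraries labelled HT against WT; red marks genes with a limma adjusted p under 0.05. The 6 red genes under lithium include Pvalb, Vip and Cck on the right and Slc12a2 on the left, and Pvalb is the red gene for genotype.

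**Figure D2:**
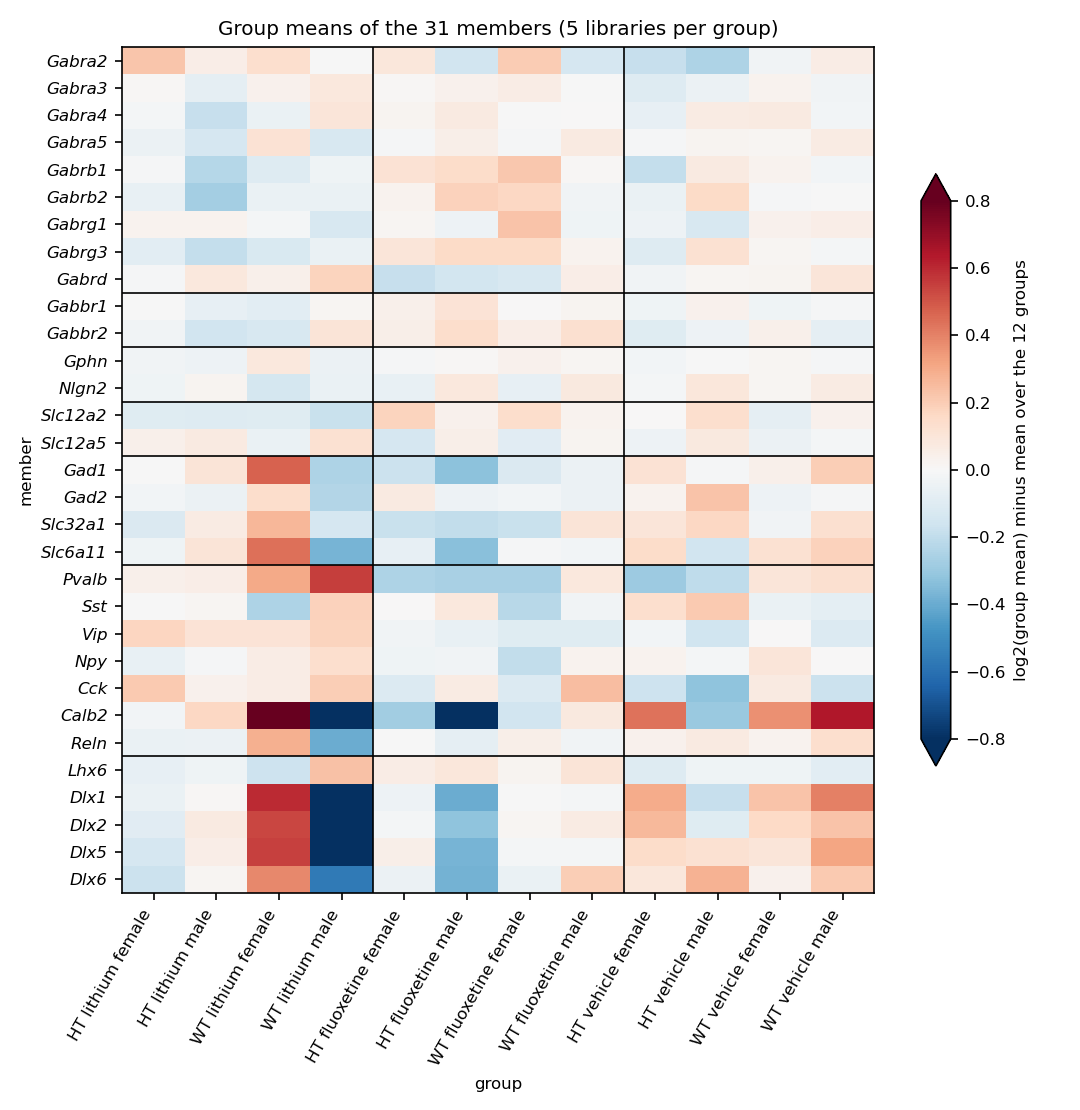
Heat map of the log2 of the mean normalized count of each gene (down the page) in each of the 12 groups (across), less the mean of these log2 values over the 12 groups. Colours are clipped at -0.8 and 0.8. Calb2 and the Dlx genes hold the strongest colours, and Pvalb is above its mean in both WT lithium groups.

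Pvalb (chr15:78191114-78206400, GRCm38, minus strand), the calcium-binding protein parvalbumin of fast-spiking basket and chandelier cells, differed both with genotype and with lithium. Under lithium, Pvalb had 665, 633, 492, 428 and 595 normalized counts in HT females, 399, 592, 767, 551 and 526 in HT males, 669, 605, 609, 710 and 784 in WT females and 756, 877, 713, 888 and 778 in WT males. Under fluoxetine, Pvalb had 531, 404, 544, 472 and 357 normalized counts in HT females, 574, 400, 444, 435 and 436 in HT males, 416, 462, 519, 464 and 425 in WT females and 610, 784, 608, 392 and 505 in WT males. Under vehicle, Pvalb had 490, 434, 433, 479 and 403 normalized counts in HT females, 436, 496, 476, 502 and 467 in HT males, 586, 606, 654, 423 and 651 in WT females and 709, 663, 619, 488 and 509 in WT males. Lithium group means were above vehicle group means in each of the 4 pairs, although HT lithium male replicate 1, at 399, lay below all 10 HT vehicle libraries (403 to 502). Group means were lower in HT than in WT for both sexes under lithium and vehicle and for males under fluoxetine. Ranges of HT and WT groups of the same sex overlapped in all 6 pairs. Over all treatments Pvalb averaged 495 ± 90.3 normalized counts in libraries labelled HT and 616 ± 137 in libraries labelled WT (SD, n = 30 each), a log2 fold change of -0.30 with an SE of 0.057 (adjusted p = 0.00078, limma), with 26 of 30 HT libraries below the mean of their WT group. Under lithium the difference was a log2 fold change of -0.40 with an SE of 0.10 (adjusted p = 0.04, limma) (10 of 10 libraries). It was a log2 fold change of -0.16 with an SE of 0.10 (adjusted p = 0.55, limma) under fluoxetine and a log2 fold change of -0.34 with an SE of 0.10 (adjusted p = 0.17, limma) under vehicle. The test of whether the lithium response itself differed between the genotypes gave a log2 fold change of -0.058 with an SE of 0.14 (adjusted p = 0.99, limma). The call over all treatments was kept with each of the 60 libraries left out, at -0.32 to -0.28. The call under lithium was lost with any of 12 of 20 libraries left out (-0.46 to -0.34), and when the lithium libraries were fitted alone. In bulk tissue, fewer cells of a type and less RNA per cell cannot be told apart.

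With lithium Pvalb averaged 652 ± 135 normalized counts, against 526 ± 93.9 with vehicle (SD, n = 20 each), a log2 fold change of 0.30 with an SE of 0.07 (adjusted p = 0.0012, limma). It was above the mean of its vehicle group in 18 of 20 lithium libraries. In WT males the lithium and vehicle ranges did not overlap (713 to 888 against 488 to 709), and in the other 3 pairs they did. The difference was a log2 fold change of 0.33 with an SE of 0.10 (adjusted p = 0.041, limma) in libraries labelled WT and a log2 fold change of 0.27 with an SE of 0.10 (adjusted p = 0.056, limma) in libraries labelled HT. With fluoxetine Pvalb averaged 489 ± 99.98 normalized counts, lower than with lithium in 19 of 20 fluoxetine libraries, a log2 fold change of -0.41 with an SE of 0.07 (adjusted p = 9.2e-06, limma). With library depth as a covariate the lithium difference over both genotypes was 0.18 (limma adjusted p = 0.16). With the striatal and olfactory bulb scores as covariates it was 0.29 (limma adjusted p = 0.0043), and the genotype difference over all treatments was -0.35 (limma adjusted p = 3.4e-05). The call in libraries labelled WT was lost with any of 10 of 20 libraries left out (0.27 to 0.36).

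Vip (chr10:5639218-5647617, plus strand) encodes vasoactive intestinal peptide, which marks interneurons that mainly inhibit other interneurons. Under lithium, Vip had 1560, 1476, 1389, 1272 and 1284 normalized counts in HT females, 1103, 1367, 1308, 1447 and 1475 in HT males, 1248, 1241, 1284, 1400 and 1522 in WT females and 1253, 1344, 1284, 1660 and 1458 in WT males. Under fluoxetine, Vip had 1262, 1252, 1197, 1236 and 1127 normalized counts in HT females, 1177, 1148, 1264, 1327 and 1032 in HT males, 1235, 1272, 1072, 1075 and 1142 in WT females and 1237, 1330, 1078, 1117 and 1043 in WT males. Under vehicle, Vip had 1114, 1336, 1183, 1170 and 1299 normalized counts in HT females, 1242, 1185, 1053, 1074 and 994 in HT males, 1328, 1279, 1471, 1035 and 1102 in WT females and 1090, 1127, 1049, 1179 and 1294 in WT males. Lithium group means were higher in each of the 4 pairs, and the ranges overlapped with vehicle in all 4. Vip averaged 1369 ± 132 normalized counts with lithium, 1181 ± 93.0 with fluoxetine and 1180.2 ± 124 with vehicle (SD, n = 20 each). The lithium difference was a log2 fold change of 0.21 with an SE of 0.043 (adjusted p = 0.00018, limma), with 19 of 20 lithium libraries above the mean of their vehicle group. It was a log2 fold change of 0.23 with an SE of 0.061 (adjusted p = 0.0064, limma) in libraries labelled HT and a log2 fold change of 0.20 with an SE of 0.061 (adjusted p = 0.045, limma) in libraries labelled WT. Vip was lower with fluoxetine than with lithium in 20 of 20 libraries, a log2 fold change of -0.21 with an SE of 0.043 (adjusted p = 0.00012, limma). Against vehicle fluoxetine gave a log2 fold change of 0.0044 with an SE of 0.043 (adjusted p = 0.96, limma). With the marker scores as covariates the lithium difference was 0.10 (limma adjusted p = 0.049) over both genotypes and 0.05 (limma adjusted p = 0.64) in libraries labelled HT. The call in libraries labelled WT was lost with any of 12 of 20 libraries left out (0.17 to 0.23).

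Cck (chr9:121489824-121495694, minus strand) encodes cholecystokinin, a peptide of a class of basket cells that cortical projection neurons also make. Under lithium, Cck had 9454, 9025, 8791, 7025 and 8793 normalized counts in HT females, 5741, 7289, 7296, 8344 and 9532 in HT males, 7550, 7320, 7439, 8396 and 8042 in WT females and 6624, 8919, 9563, 8393 and 9180 in WT males. Under fluoxetine, Cck had 6970, 6994, 7597, 6163 and 6767 normalized counts in HT females, 9203, 8644, 8009, 6449 and 6739 in HT males, 5874, 6159, 7678, 7445 and 7427 in WT females and 8842, 10772, 8397, 7179 and 8925 in WT males. Under vehicle, Cck had 7020, 5941, 6551, 6445 and 7177 normalized counts in HT females, 4236, 5581, 6065, 6843 and 7027 in HT males, 9907, 7519, 7473, 6169 and 8044 in WT females and 7567, 6024, 6573, 5936 and 6894 in WT males. Lithium libraries labelled HT were above most vehicle libraries labelled HT, and in WT females the lithium values lay inside the vehicle range. Cck averaged 8136 ± 1062 normalized counts with lithium, 7612 ± 1229 with fluoxetine and 6749.6 ± 1131 with vehicle (SD, n = 20 each). Lithium gave a log2 fold change of 0.28 with an SE of 0.06 (adjusted p = 0.00052, limma) (16 of 20 libraries higher). This was a log2 fold change of 0.37 with an SE of 0.085 (adjusted p = 0.0019, limma) in libraries labelled HT and a log2 fold change of 0.18 with an SE of 0.085 (adjusted p = 0.22, limma) in libraries labelled WT. Fluoxetine gave a log2 fold change of 0.18 with an SE of 0.06 (adjusted p = 0.04, limma) (14 of 20 libraries higher). The fluoxetine call was lost with any of 20 of 40 libraries left out (0.15 to 0.20), among them HT vehicle male replicate 1, the lowest of all libraries at 4236. It was also lost with depth (0.035, limma adjusted p = 0.9) or the marker scores (0.13, limma adjusted p = 0.11) as covariates, and depth removed the lithium call over both genotypes (0.20, limma adjusted p = 0.065).

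Npy (chr6:49822710-49829507, plus strand) encodes neuropeptide Y, made by neurogliaform cells and by part of the Sst cells. Under lithium, Npy had 2742, 2352, 2315, 2473 and 2767 normalized counts in HT females, 2485, 2546, 3008, 2533 and 2494 in HT males, 2834, 2601, 2813, 2441 and 3017 in WT females and 2888, 3116, 2909, 2742 and 2810 in WT males. Under fluoxetine, Npy had 2395, 2375, 2986, 2727 and 2397 normalized counts in HT females, 2843, 2581, 2380, 2643 and 2455 in HT males, 2075, 2086, 2563, 2298 and 2451 in WT females and 2646, 3070, 2691, 2429 and 2571 in WT males. Under vehicle, Npy had 2683, 2648, 2879, 2629 and 2571 normalized counts in HT females, 2195, 3091, 2593, 2467 and 2694 in HT males, 2845, 2816, 2884, 2569 and 3000 in WT females and 2683, 2681, 2667, 2495 and 2661 in WT males. The ranges of fluoxetine and lithium overlapped in all pairs. WT fluoxetine females (2075 to 2563) lay below WT vehicle females (2569 to 3000). WT lithium males (2742 to 3116) lay above WT vehicle males (2495 to 2683), and the other pairs with vehicle overlapped. The means were 2533 ± 257 normalized counts with fluoxetine, 2694 ± 233 with lithium and 2688 ± 198 with vehicle (SD, n = 20 each). Npy was lower with fluoxetine than with lithium, a log2 fold change of -0.091 with an SE of 0.036 (adjusted p = 0.045, limma), and this call was lost with any of 22 of 40 libraries left out (-0.10 to -0.078).

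The remaining marker genes of this class passed in no averaged comparison. Sst, the peptide of Martinotti cells, had 3135, 4724 and 5795 normalized counts (lowest, median and highest) with lithium, 2947, 4494 and 5683 with fluoxetine and 3083, 4807 and 7367 with vehicle. For genotype over all treatments Sst had a log2 fold change of 0.14 with an SE of 0.063 (adjusted p = 0.18, limma). Reln, a secreted glycoprotein of layer 1 and neurogliaform cells, had 1786, 2501 and 4986 normalized counts with lithium, 2165, 2771 and 4527 with fluoxetine and 2057, 2928 and 4366 with vehicle. Calb2, the calcium-binding protein calretinin, had 311, 883 and 3985 normalized counts with lithium, 271, 768 and 4097 with fluoxetine and 402, 1396 and 4279 with vehicle. Its spread was the widest of the 31 genes.

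**Figure D3:**
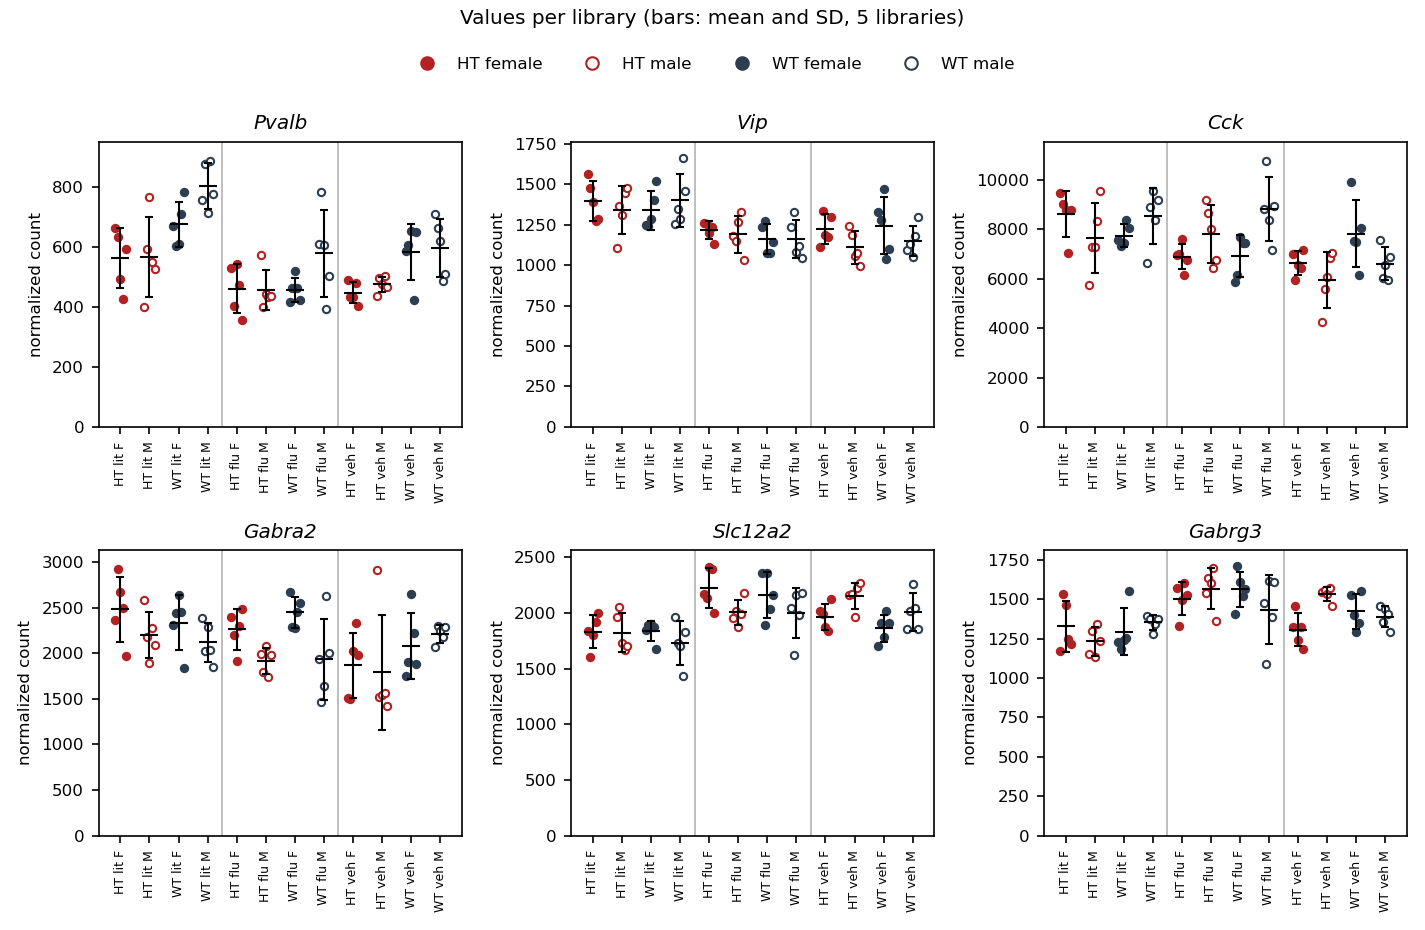
Normalized counts (vertical axis) of Pvalb, Vip, Cck, Gabra2, Slc12a2 and Gabrg3 in every library of the 12 groups (horizontal axis; filled symbols female, open symbols male), with the mean and SD of each group of 5. Pvalb in WT lithium males lies between 713 and 888, above the 488 to 709 of WT vehicle males.

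The 3 interneuron genes that rose with lithium are shown with their promoter windows (RefSeq, GRCm38.p6; 250 bases before to 50 after the annotated start), beside that of Sst, which was not called and carries a full element of this kind. Each window is written 5′ to 3′ on the gene's strand, at chr10:5638968-5639267 (Vip, plus strand), chr9:121495645-121495944 (Cck, minus), chr15:78206351-78206650 (Pvalb, minus; of 2 windows listed for it, the one nearest its outermost start) and chr16:23890795-23891094 (Sst, minus). Capitals mark TGACG, the core of the cyclic-AMP response element, which CREB-family factors recognize, or its reverse complement CGTCA.
Vip: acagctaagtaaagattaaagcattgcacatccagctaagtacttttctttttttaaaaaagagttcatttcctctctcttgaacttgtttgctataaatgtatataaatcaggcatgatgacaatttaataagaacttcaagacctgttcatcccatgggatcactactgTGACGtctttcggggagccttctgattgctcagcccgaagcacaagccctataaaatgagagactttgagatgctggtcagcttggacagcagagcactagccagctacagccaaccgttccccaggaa
Cck: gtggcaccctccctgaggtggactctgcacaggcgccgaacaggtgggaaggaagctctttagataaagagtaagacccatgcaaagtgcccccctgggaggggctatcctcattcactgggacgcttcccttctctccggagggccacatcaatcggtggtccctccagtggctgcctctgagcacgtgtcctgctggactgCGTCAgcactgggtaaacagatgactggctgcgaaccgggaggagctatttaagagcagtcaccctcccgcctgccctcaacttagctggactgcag
Pvalb: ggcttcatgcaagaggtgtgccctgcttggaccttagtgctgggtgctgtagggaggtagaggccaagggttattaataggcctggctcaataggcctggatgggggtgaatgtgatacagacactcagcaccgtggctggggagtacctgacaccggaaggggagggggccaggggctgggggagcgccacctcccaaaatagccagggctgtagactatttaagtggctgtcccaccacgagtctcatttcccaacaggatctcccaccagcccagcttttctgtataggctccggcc
Sst: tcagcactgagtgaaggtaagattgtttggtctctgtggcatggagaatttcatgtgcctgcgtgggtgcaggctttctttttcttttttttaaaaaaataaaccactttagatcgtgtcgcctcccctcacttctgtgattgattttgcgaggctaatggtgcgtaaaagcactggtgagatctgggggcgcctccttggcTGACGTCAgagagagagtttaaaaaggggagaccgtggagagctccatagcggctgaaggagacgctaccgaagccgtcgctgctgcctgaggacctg
The Vip window holds TGACG with its first base 79 bases before the start, the Cck window holds CGTCA 47 bases before, and the Sst window holds TGACGTCA, in which TGACG and CGTCA overlap. The Pvalb window holds neither. On either strand TGACG occurred in 20.8% of the 32851 windows of this table and in 7 of the 26 members that it lists (Cck, Dlx2, Gabrb2, Gad2, Nlgn2, Sst and Vip). TGACGTCA occurred in 1.79% of windows and in Sst alone among those 26. A member was counted if any of its windows held the letters, so the share of windows and the count of members are unlike measures. A match of letters is a description of the window and no evidence of binding.

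The GABA-A receptor subunits assemble as pentamers of alpha, beta and usually gamma or delta subunits. Between fluoxetine and lithium libraries 4 of the 9 differed (Gabrb1, Gabrb2, Gabrg3 and Gabrd). This was 44.4% of the class, against 32.9% of all genes. Gabra2 was not among these 4 and was called with lithium against vehicle. Gabra2 (chr5:70957597-71095849, minus strand) encodes an alpha subunit of synaptic receptors, abundant on the axon initial segment. Under lithium, Gabra2 had 2365, 2919, 2667, 2495 and 1965 normalized counts in HT females, 2580, 2179, 1892, 2275 and 2087 in HT males, 2306, 2436, 2641, 2448 and 1841 in WT females and 2388, 2023, 2291, 2033 and 1851 in WT males. Under fluoxetine, Gabra2 had 2400, 2195, 1916, 2302 and 2488 normalized counts in HT females, 1987, 1789, 2074, 1734 and 1979 in HT males, 2676, 2292, 2280, 2447 and 2545 in WT females and 1934, 1467, 1642, 2628 and 1997 in WT males. Under vehicle, Gabra2 had 1504, 1499, 2019, 2328 and 1983 normalized counts in HT females, 2908, 1517, 1538, 1563 and 1416 in HT males, 1748, 1905, 2650, 2222 and 1879 in WT females and 2065, 2297, 2243, 2173 and 2282 in WT males. Lithium libraries labelled HT lay at or above 1892, and HT vehicle males held 4 values between 1416 and 1563 and 1 of 2908, in replicate 1. Gabra2 averaged 2284 ± 299 normalized counts with lithium and 1987 ± 412 with vehicle (SD, n = 20 each). The lithium difference was a log2 fold change of 0.22 with an SE of 0.068 (adjusted p = 0.015, limma) (16 of 20 libraries higher). In libraries labelled HT it was a log2 fold change of 0.39 with an SE of 0.10 (adjusted p = 0.0041, limma) (10 of 10 libraries), and in libraries labelled WT a log2 fold change of 0.052 with an SE of 0.10 (adjusted p = 0.82, limma). The test of the difference between those responses gave a log2 fold change of 0.33 with an SE of 0.14 (adjusted p = 0.88, limma), at an unadjusted p of 0.017. Both calls were lost with the striatal and olfactory bulb scores as covariates, at 0.15 (limma adjusted p = 0.1) over both genotypes and 0.25 (limma adjusted p = 0.11) in libraries labelled HT.

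Gabrg3 (chr7:56716465-57387188, minus strand) encodes a gamma subunit. Under lithium, Gabrg3 had 1171, 1536, 1462, 1251 and 1218 normalized counts in HT females, 1150, 1301, 1131, 1344 and 1237 in HT males, 1232, 1185, 1244, 1256 and 1556 in WT females and 1393, 1378, 1277, 1346 and 1376 in WT males. Under fluoxetine, Gabrg3 had 1569, 1330, 1494, 1603 and 1529 normalized counts in HT females, 1541, 1635, 1602, 1701 and 1360 in HT males, 1405, 1710, 1613, 1521 and 1566 in WT females and 1474, 1088, 1619, 1385 and 1609 in WT males. Under vehicle, Gabrg3 had 1325, 1460, 1244, 1325 and 1187 normalized counts in HT females, 1548, 1559, 1537, 1573 and 1455 in HT males, 1530, 1398, 1295, 1352 and 1551 in WT females and 1455, 1358, 1436, 1407 and 1291 in WT males. Lithium males labelled HT did not overlap the vehicle males labelled HT (1131 to 1344 against 1455 to 1573). Fluoxetine group means were above lithium group means in each of the 4 pairs. Lithium gave a log2 fold change of -0.12 with an SE of 0.039 (adjusted p = 0.021, limma) (16 of 20 libraries lower), and fluoxetine against vehicle a log2 fold change of 0.10 with an SE of 0.039 (adjusted p = 0.081, limma). Between the drugs Gabrg3 was higher with fluoxetine in 19 of 20 libraries, a log2 fold change of 0.22 with an SE of 0.039 (adjusted p = 1.9e-05, limma). Depth as a covariate removed the lithium call over both genotypes, at -0.11 (limma adjusted p = 0.14).

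Gabrb1 (chr5:71658113-72149037, plus strand) and Gabrb2 (chr11:42419757-42629028, plus strand) encode beta subunits, which form part of the GABA binding site. Under lithium, Gabrb1 had 4047, 4534, 4646, 4037 and 4231 normalized counts in HT females, 3601, 3842, 3129, 3822 and 4039 in HT males, 3546, 3896, 4113, 4140 and 4435 in WT females and 4717, 4480, 3665, 4361 and 3903 in WT males. Under fluoxetine, Gabrb1 had 4783, 4103, 4533, 5426 and 4556 normalized counts in HT females, 4633, 4831, 5088, 5152 and 4258 in HT males, 4236, 5590, 5124, 4989 and 5110 in WT females and 4852, 2676, 4949, 4375 and 4916 in WT males. Under vehicle, Gabrb1 had 3919, 3959, 3463, 3762 and 3824 normalized counts in HT females, 5015, 4536, 4407, 4452 and 4298 in HT males, 5034, 3925, 4059, 4108 and 4869 in WT females and 4721, 4064, 4214, 4389 and 3914 in WT males. Fluoxetine females labelled HT did not overlap vehicle females labelled HT (4103 to 5426 against 3463 to 3959). WT fluoxetine male replicate 2, at 2676, was the lowest of all 60 libraries. Gabrb1 rose with fluoxetine, a log2 fold change of 0.14 with an SE of 0.05 (adjusted p = 0.046, limma) (17 of 20 libraries). This call was lost with any of 27 of 40 libraries left out (0.13 to 0.18) and with either covariate (0.18, limma adjusted p = 0.24 with depth, 0.11 (limma adjusted p = 0.12) with the marker scores). Gabrb1 was also higher with fluoxetine than with lithium, a log2 fold change of 0.21 with an SE of 0.05 (adjusted p = 0.00094, limma) (18 of 20 libraries), a call kept with each library left out.

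Under lithium, Gabrb2 had 2830, 3966, 3871, 3649 and 3650 normalized counts in HT females, 3240, 2688, 3025, 3690 and 2878 in HT males, 3411, 3360, 3686, 3160 and 4432 in WT females and 3915, 3939, 2885, 3968 and 3341 in WT males. Under fluoxetine, Gabrb2 had 4126, 3172, 3947, 3958 and 3883 normalized counts in HT females, 4525, 4060, 4269, 4739 and 3710 in HT males, 3808, 4789, 3986, 4018 and 4376 in WT females and 4259, 1930, 4429, 3749 and 4007 in WT males. Under vehicle, Gabrb2 had 3806, 3955, 3571, 3552 and 3142 normalized counts in HT females, 4709, 4511, 3775, 4194 and 3671 in HT males, 4231, 3259, 3007, 3611 and 4515 in WT females and 3782, 3607, 4069, 4025 and 3242 in WT males. For Gabrb2, too, WT fluoxetine male replicate 2 was the lowest library, at 1930. The ranges of fluoxetine and lithium males labelled HT did not overlap (3710 to 4739 against 2688 to 3690). Gabrb2 was higher with fluoxetine than with lithium, a log2 fold change of 0.19 with an SE of 0.066 (adjusted p = 0.023, limma) (18 of 20 libraries). Against vehicle it had a log2 fold change of -0.13 with an SE of 0.066 (adjusted p = 0.14, limma) with lithium and a log2 fold change of 0.054 with an SE of 0.066 (adjusted p = 0.65, limma) with fluoxetine. The 5′ ends of Gabrb1 and Gabra4 overlap on opposite strands (chr5:71658113-71658308), and, although the kit keeps strand, since its use in counting is not given in the sources used here, reads there cannot be told apart.

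Gabrd (chr4:155384980-155398112, minus strand) encodes the delta subunit of extrasynaptic receptors that carry tonic inhibition. Under lithium, Gabrd had 1907, 1758, 1443, 1312 and 1504 normalized counts in HT females, 1450, 1796, 1785, 1623 and 1804 in HT males, 1728, 1535, 1536, 1699 and 1678 in WT females and 1643, 1697, 1848, 1978 and 1835 in WT males. Under fluoxetine, Gabrd had 1405, 1329, 1469, 1380 and 1426 normalized counts in HT females, 1562, 1419, 1466, 1321 and 1428 in HT males, 1329, 1516, 1550, 1468 and 1408 in WT females and 1672, 1950, 1656, 1378 and 1619 in WT males. Under vehicle, Gabrd had 1549, 1538, 1494, 1635 and 1588 normalized counts in HT females, 1278, 1659, 1713, 1774 and 1635 in HT males, 1601, 1746, 1595, 1456 and 1682 in WT females and 1811, 1720, 1621, 1696 and 1666 in WT males. Fluoxetine group means were lower in each of the 4 pairs, without overlap in HT females (1329 to 1469, against 1494 to 1635 with vehicle), and HT vehicle male replicate 1 was the lowest library, at 1278. Gabrd averaged 1488 ± 151 normalized counts with fluoxetine and 1623 ± 122 with vehicle (SD, n = 20 each), a log2 fold change of -0.13 with an SE of 0.039 (adjusted p = 0.019, limma) (19 of 20 libraries lower). It was also lower with fluoxetine than with lithium, where it averaged 1678 ± 172, a log2 fold change of -0.17 with an SE of 0.039 (adjusted p = 0.00042, limma) (19 of 20 libraries). The call against vehicle was lost with depth as a covariate (-0.20, limma adjusted p = 0.085) and kept with each library left out.

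The other 4 subunits passed in no averaged comparison. Over all libraries Gabra3 ranged from 4213 to 5613 normalized counts, Gabra4 from 2553 to 4214, Gabra5 from 1336 to 2266 and Gabrg1 from 477 to 1084. Gabra3 and Gabra5 are alpha subunits, of which Gabra5 is known for extrasynaptic receptors, and Gabra4 often pairs with Gabrd. For genotype over all treatments Gabra3 had a log2 fold change of -0.059 with an SE of 0.022 (adjusted p = 0.11, limma).

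The GABA-B receptor is an obligate pair of Gabbr1 (chr17:37045966-37075067, plus strand), which binds GABA, and Gabbr2 (chr4:46662305-46991873, minus strand), which couples to the G protein. Under lithium, Gabbr1 had 20679, 21645, 21010, 19040 and 20231 normalized counts in HT females, 17961, 19553, 19544, 20672 and 20423 in HT males, 18981, 18609, 19144, 19449 and 20807 in WT females and 20748, 21509, 20092, 21145 and 20448 in WT males. Under fluoxetine, Gabbr1 had 21483, 20204, 22751, 21192 and 19974 normalized counts in HT females, 23128, 22170, 22638, 22416 and 20497 in HT males, 19183, 21023, 22074, 20085 and 20393 in WT females and 20972, 20635, 21509, 19448 and 21602 in WT males. Under vehicle, Gabbr1 had 20629, 20615, 19717, 19551 and 19547 normalized counts in HT females, 19041, 20789, 21411, 22596 and 21038 in HT males, 20688, 20050, 19333, 18837 and 21085 in WT females and 21240, 20548, 20785, 19984 and 19618 in WT males. All 60 Gabbr1 values lay between 17961 and 23128, and the highest was in an HT fluoxetine male. Under lithium, Gabbr2 had 12681, 13731, 13607, 10070 and 11370 normalized counts in HT females, 9276, 11183, 11359, 12451 and 12173 in HT males, 10430, 10068, 11225, 11106 and 14635 in WT females and 13631, 14984, 12589, 13550 and 12747 in WT males. Under fluoxetine, Gabbr2 had 13467, 11929, 14150, 13398 and 11817 normalized counts in HT females, 15979, 15031, 13730, 13041 and 11411 in HT males, 10824, 13793, 14198, 12908 and 13494 in WT females and 14143, 12738, 15165, 11717 and 14724 in WT males. Under vehicle, Gabbr2 had 12613, 12610, 11621, 10551 and 11175 normalized counts in HT females, 10337, 13592, 12394, 12800 and 11916 in HT males, 14644, 12908, 11598, 10246 and 15100 in WT females and 13493, 12065, 12004, 11728 and 10478 in WT males. Ranges overlapped between the drugs in every pair for both genes. Gabbr1 was higher with fluoxetine than with lithium, a log2 fold change of 0.076 with an SE of 0.023 (adjusted p = 0.0079, limma) (15 of 20 libraries), and so was Gabbr2, a log2 fold change of 0.14 with an SE of 0.05 (adjusted p = 0.021, limma) (15 of 20 libraries). Against vehicle fluoxetine gave a log2 fold change of 0.056 with an SE of 0.023 (adjusted p = 0.088, limma) for Gabbr1 and a log2 fold change of 0.14 with an SE of 0.05 (adjusted p = 0.059, limma) for Gabbr2. With depth as a covariate both calls between the drugs were lost, at 0.061 (limma adjusted p = 0.094) and 0.10 (limma adjusted p = 0.21). After subtraction of group means the levels of these genes went together over the 60 libraries (Pearson's r = 0.90, a description), and both were related negatively to the olfactory bulb score given further on.

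Of the chloride cotransporters, Slc12a2 (chr18:57878678-57946821, plus strand), the importer NKCC1, was called, and Slc12a5 (chr2:164960802-164999731, plus strand), the neuronal exporter KCC2, was not. Under lithium, Slc12a2 had 1837, 1609, 1801, 1918 and 1998 normalized counts in HT females, 1963, 2052, 1730, 1665 and 1708 in HT males, 1843, 1896, 1897, 1871 and 1676 in WT females and 1966, 1733, 1703, 1430 and 1827 in WT males. Under fluoxetine, Slc12a2 had 2169, 2135, 2415, 2394 and 1997 normalized counts in HT females, 1956, 2019, 1878, 1994 and 2182 in HT males, 2358, 1892, 2360, 2034 and 2160 in WT females and 2047, 1626, 2162, 1981 and 2183 in WT males. Under vehicle, Slc12a2 had 2022, 1987, 1870, 1834 and 2124 normalized counts in HT females, 2161, 2169, 1962, 2224 and 2266 in HT males, 1703, 1908, 1788, 2015 and 1909 in WT females and 1852, 2020, 2264, 2044 and 1860 in WT males. Lithium group means were lower in each pair, with overlap in all 4 pairs, and fluoxetine group means were above lithium group means in each pair. Slc12a2 averaged 1806 ± 151 normalized counts with lithium, 2097 ± 196 with fluoxetine and 1999 ± 162 with vehicle (SD, n = 20 each). Lithium gave a log2 fold change of -0.15 with an SE of 0.037 (adjusted p = 0.0028, limma) (16 of 20 libraries lower) and, in libraries labelled HT, a log2 fold change of -0.17 with an SE of 0.053 (adjusted p = 0.019, limma). The HT call was lost without HT lithium female replicate 2, at -0.15. Between the drugs Slc12a2 was higher with fluoxetine in 19 of 20 libraries, a log2 fold change of 0.21 with an SE of 0.037 (adjusted p = 1.2e-05, limma). With the marker scores as covariates the lithium difference was -0.076 (limma adjusted p = 0.17) over both genotypes, and the difference between the drugs was 0.18 (limma adjusted p = 5.5e-05). Oligodendrocytes also make Slc12a2, and their summed markers were 53995 to 176797 (median 104918) normalized counts with lithium, 97021 to 185985 (median 138419) with fluoxetine and 70206 to 186681 (median 140012) with vehicle, with no library at 0. Their part in the result was not tested.

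Slc12a5 had 15016, 17977 and 21788 normalized counts (lowest, median and highest) with lithium, 12962, 16661 and 20472 with fluoxetine and 13220.1, 16766 and 20549.5 with vehicle. The lithium difference was a log2 fold change of 0.056 with an SE of 0.048 (adjusted p = 0.44, limma) and the fluoxetine difference a log2 fold change of -0.031 with an SE of 0.048 (adjusted p = 0.73, limma). The ratio of exporter to importer per kilobase of exon was 14.8 ± 2.67 with lithium, 11.97 ± 1.95 with fluoxetine and 12.8 ± 1.77 with vehicle (SD, n = 20 each), with no test of the ratio itself. Per kilobase of the longest transcript it was 10.9 ± 1.97 with lithium, 8.83 ± 1.44 with fluoxetine and 9.41 ± 1.30 with vehicle.

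Of the genes that make and transport GABA, Slc32a1 (chr2:158610767-158615748, plus strand), the vesicular transporter of GABA neurons, was called. Under lithium, Slc32a1 had 1576, 1594, 1671, 2354 and 2359 normalized counts in HT females, 2944, 1739, 2723, 1822 and 1591 in HT males, 2552, 2943, 2606, 2191 and 2131 in WT females and 1909, 1892, 1908, 1764 and 1941 in WT males. Under fluoxetine, Slc32a1 had 1754, 1875, 1899, 1518 and 2081 normalized counts in HT females, 1707, 1643, 1621, 1904 and 2157 in HT males, 1832, 1588, 1982, 1907 and 1850 in WT females and 1923, 2300, 2112, 2721 and 2037 in WT males. Under vehicle, Slc32a1 had 2397, 1807, 2618, 2407 and 1830 normalized counts in HT females, 1803, 2276, 2605, 2501 and 2435 in HT males, 1819, 1583, 1832, 2869 and 2060 in WT females and 2134, 2358, 2319, 2152 and 2363 in WT males. Fluoxetine group means were below vehicle group means in each of the 4 pairs, and the ranges overlapped with vehicle in all 4 pairs. Slc32a1 averaged 1921 ± 276 normalized counts with fluoxetine and 2208 ± 342 with vehicle (SD, n = 20 each), a log2 fold change of -0.20 with an SE of 0.069 (adjusted p = 0.044, limma) (18 of 20 libraries lower). In libraries labelled HT the difference was a log2 fold change of -0.31 with an SE of 0.10 (adjusted p = 0.029, limma) (10 of 10 libraries), and in libraries labelled WT a log2 fold change of -0.081 with an SE of 0.10 (adjusted p = 0.82, limma). Beside these values, the olfactory bulb sum was 419.9 to 11298 (median 1637) normalized counts with fluoxetine and 534 to 11089 (median 3339.6) with vehicle. The call was lost with the marker scores as covariates, at -0.049 (limma adjusted p = 0.47) over both genotypes and -0.075 (limma adjusted p = 0.49) in libraries labelled HT. It was also lost with any of 23 of 40 libraries left out (-0.22 to -0.16), and in libraries labelled HT with any of 8 of 20 (-0.36 to -0.28).

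Gad1, the decarboxylase that makes most GABA, had 6304, 8559 and 15824 normalized counts (lowest, median and highest) with lithium, 6394, 7741 and 13566 with fluoxetine and 6625, 9138 and 14498 with vehicle. Gad2, the decarboxylase tied to synaptic vesicles, had 3939.6, 4637 and 6517 with lithium, 3693, 5225 and 6279.8 with fluoxetine and 3986, 5246 and 6434 with vehicle. Slc6a11, the GABA transporter GAT3 of astrocytes, had 3255, 4489 and 9136 with lithium, 3328, 4259.9 and 8478 with fluoxetine and 3902, 5264 and 9217 with vehicle. None of these 3 genes was called in an averaged comparison. Gad1 had a log2 fold change of -0.24 with an SE of 0.10 (adjusted p = 0.089, limma) with fluoxetine and a log2 fold change of -0.023 with an SE of 0.10 (adjusted p = 0.89, limma) with lithium. Per kilobase of exon the ratio of Gad1 to Gad2 was 1.49 ± 0.242 with lithium, 1.24 ± 0.201 with fluoxetine and 1.41 ± 0.231 with vehicle (SD, n = 20 each), with no test of the ratio itself. Per kilobase of the longest transcript it was 3.08 ± 0.503 with lithium, 2.57 ± 0.417 with fluoxetine and 2.93 ± 0.479 with vehicle.

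Of the scaffold genes of inhibitory synapses, Gphn, gephyrin, which anchors GABA-A receptors, ranged from 1812 to 2362 normalized counts over all 60 libraries, with the lowest coefficient of variation of the set (5.10%). Nlgn2 (chr11:69823122-69837784, minus strand), the adhesion protein neuroligin 2 of inhibitory synapses, passed in no averaged comparison either. Under lithium, Nlgn2 had 8744, 8448, 8766, 8437 and 9126 normalized counts in HT females, 8988, 8302, 9345, 8976 and 9499 in HT males, 7743, 8834, 7937, 8295 and 7660 in WT females and 8070, 9276, 8664, 8002 and 8891 in WT males. Under fluoxetine, Nlgn2 had 8288, 8029, 9521, 7852 and 9022 normalized counts in HT females, 10793, 10807, 8896, 7894 and 8761 in HT males, 7169, 9314, 8789, 9107 and 8256 in WT females and 9525, 8583, 9821, 9375 and 9786 in WT males. Under vehicle, Nlgn2 had 9312, 7955, 9222, 9379 and 8242 normalized counts in HT females, 6695, 11004, 10338, 10043 and 9429 in HT males, 8961, 8632, 8799, 9337 and 9334 in WT females and 10787, 8610, 9359, 8953 and 8917 in WT males. HT vehicle male replicate 1 was the lowest library, at 6695, and the treatments overlapped. Males averaged 9213 ± 966 normalized counts and females 8617 ± 612 (SD, n = 30 each), a log2 fold change of 0.092 with an SE of 0.034 (adjusted p = 0.12, limma). Lithium gave a log2 fold change of -0.087 with an SE of 0.042 (adjusted p = 0.13, limma) (18 of 20 libraries lower). Without the 2 libraries that stood apart both differences passed, at 0.12 (limma adjusted p = 0.011) for males against females and -0.12 (limma adjusted p = 0.0093) for lithium, where 25.7% of all genes were called in that fit. Leaving out HT vehicle male replicate 1, the lowest in Nlgn2, by itself raises the male and vehicle means, so these calls follow in part from the choice.

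The transcription factors of interneurons passed in no averaged comparison. Lhx6 (chr2:36081953-36105408, minus strand), which Pvalb and Sst cells keep after leaving the medial ganglionic eminence, had the smallest unadjusted p of the 5 (0.036 by limma, with fluoxetine). Under lithium, Lhx6 had 506, 553, 565, 422 and 436 normalized counts in HT females, 373, 574, 475, 566 and 546 in HT males, 432, 358, 393, 466 and 668 in WT females and 600, 635, 614, 605 and 607 in WT males. Under fluoxetine, Lhx6 had 584, 481, 661, 523 and 460 normalized counts in HT females, 593, 631, 530, 562 and 450 in HT males, 536, 585, 524, 520 and 474 in WT females and 547, 636, 594, 448 and 563 in WT males. Under vehicle, Lhx6 had 464, 578, 458, 440 and 482 normalized counts in HT females, 386, 493, 577, 536 and 545 in HT males, 513, 559, 458, 447 and 560 in WT females and 528, 538, 494, 480 and 410 in WT males. WT lithium males were high and close together (600 to 635, against 410 to 538 in WT vehicle males). In contrast, 4 of 5 WT lithium females lay at or below 466. Beside these values, the olfactory bulb sum was 381 to 2923 normalized counts in WT lithium males and 3283 to 7538 in WT vehicle males. In WT lithium females it was 1816 to 13597. Lhx6 was related negatively to the bulb score, as given further on, and the part of bulb tissue in these differences was not tested. Lithium gave a log2 fold change of 0.048 with an SE of 0.061 (adjusted p = 0.62, limma), and fluoxetine a log2 fold change of 0.13 with an SE of 0.061 (adjusted p = 0.14, limma). Dlx1 had 439, 946 and 3308 normalized counts (lowest, median and highest) with lithium, 702, 1205 and 3325 with fluoxetine and 779, 1773 and 3606 with vehicle. Over all libraries Dlx2 ranged from 87.1 to 696, Dlx5 from 77.7 to 507 and Dlx6 from 57.0 to 263. Dlx1 and Dlx2 are neighbours on chromosome 2, as Dlx5 and Dlx6 are on chromosome 6. After subtraction of group means Dlx1 had Pearson's r = 0.97 with Dlx2 and 0.98 with Calb2 over the 60 libraries, given as a description.

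The spread within groups followed the markers of the olfactory bulb. The score is the mean over 11 bulb genes, none of them a member, of log2 levels centred over the libraries. For the relation, the score and each member's log2 level were centred on their group means, so that treatment, genotype and sex do not enter. Of the 31 genes 22 passed (12 positive, 10 negative) among 62 relations tested two-sided with 100000 permutations within groups, for which 1e-05 is the smallest p. The smallest size of r among the 22 was 0.38, and 28.7% of 17794 tested genes with a symbol had an r of that size or more, against 71% of the 31, which is a description and no test. Calb2, which many granule and periglomerular cells of the bulb make, had Pearson's r = 0.99 (permutation p = 1e-05, adjusted p = 4.4e-05) and Spearman's rho = 0.98 (permutation p = 1e-05, adjusted p = 4.8e-05). Dlx1 had Pearson's r = 0.96 (permutation p = 1e-05, adjusted p = 4.4e-05) and Spearman's rho = 0.96 (permutation p = 1e-05, adjusted p = 4.8e-05). On the negative side Lhx6 had Pearson's r = -0.78 (permutation p = 1e-05, adjusted p = 4.4e-05) and Spearman's rho = -0.78 (permutation p = 1e-05, adjusted p = 4.8e-05). Pearson's r was positive, too, for Gad1 (0.93), Slc6a11 (0.93), Reln (0.90), Gad2 (0.71), Slc32a1 (0.68) and Gabra5 (0.66), and negative for Gabbr1 (-0.73), Gabbr2 (-0.70), Sst (-0.69) and Gabrd (-0.58). For the genes called with lithium it was 0.40 for Gabra2, -0.52 for Gabrg3, -0.48 for Cck, -0.40 for Pvalb, -0.38 for Vip and 0.10 for Slc12a2, the last of which did not pass. Without the 2 libraries farthest from the median of the group-centred score (HT lithium female replicate 4 and HT lithium male replicate 1) 20 genes passed, with r = 0.99 for Calb2 and -0.74 for Lhx6, and Vip and Pvalb no longer did.

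The ends of the score before centring on groups show the size of this spread. In HT fluoxetine male replicate 1, the lowest score, Calb2 had 271 normalized counts, Dlx1 702, Gad1 6806, Lhx6 593 and Gabbr2 15979. In WT lithium female replicate 2, the highest, Calb2 had 3985, Dlx1 3308, Gad1 15824, Lhx6 358 and Gabbr2 10068. The striatal score was related to 13 of the 31 genes (6 positive, 7 negative), but to 3 (Gabbr1, Sst and Slc12a2) without the 2 libraries farthest by group-centred striatal score (WT fluoxetine male replicate 5 and HT vehicle male replicate 1). The smallest size of r among the 13 was 0.31, reached by 20.8% of the 17794 genes. For the 10 that no longer passed, the size of r was 0.19 to 0.34 without those libraries and 0.31 to 0.48 with them. With both scores as covariates 6 genes passed for genotype over all treatments, against 9.62% of all genes. Gad2 was higher in libraries labelled HT (0.11, limma adjusted p = 0.0077), and Gabrd (-0.12, limma adjusted p = 0.0031), Gabbr2 (-0.10, limma adjusted p = 0.038), Cck (-0.14, limma adjusted p = 0.036), Lhx6 (-0.10, limma adjusted p = 0.048) and Pvalb were lower.

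**Figure D4:**
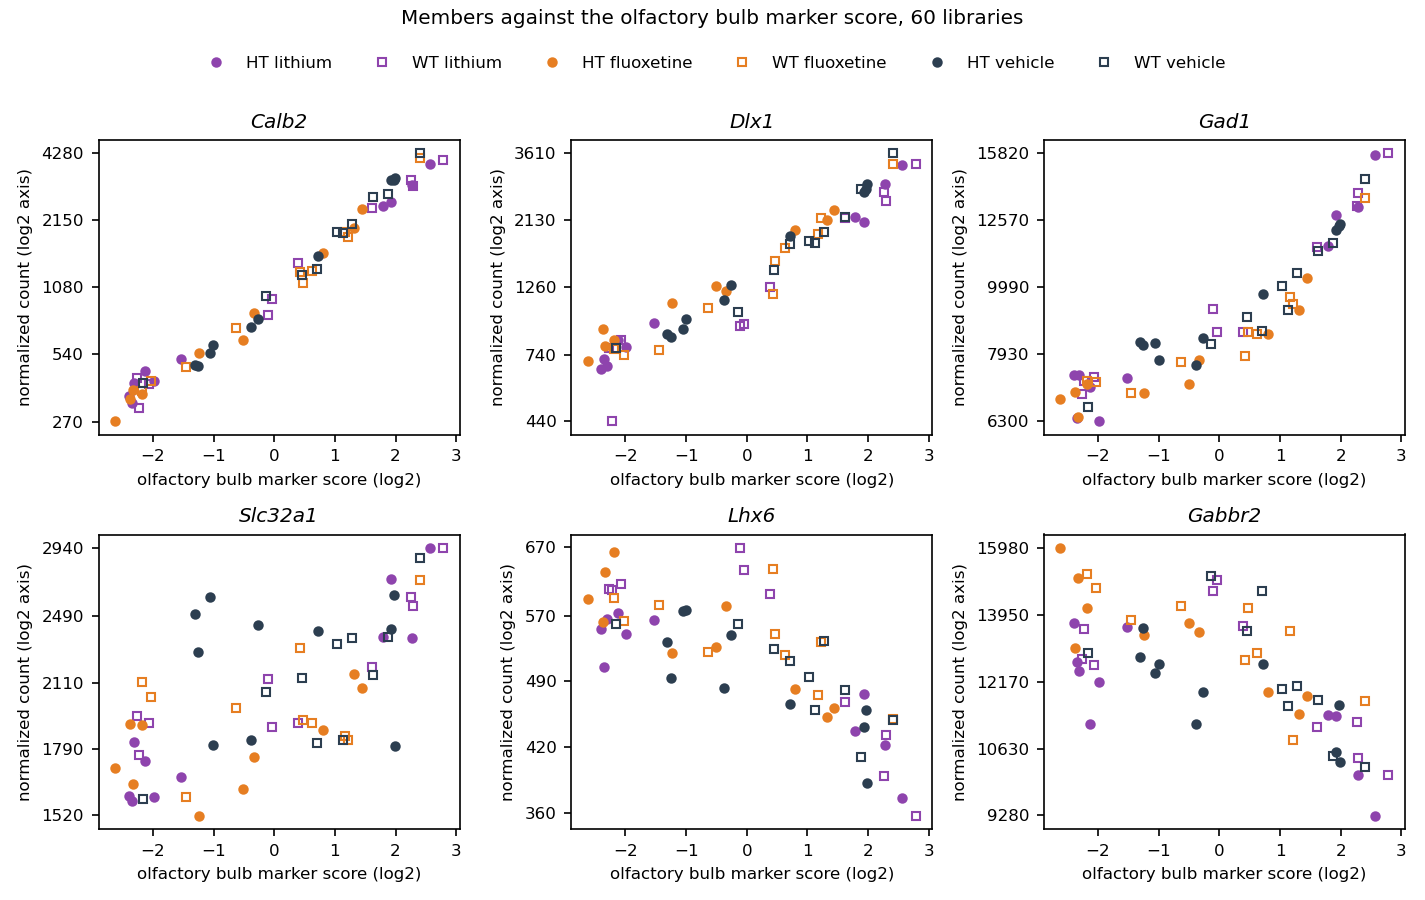
Normalized counts (vertical axis, log scale) of Calb2, Dlx1, Gad1, Slc32a1, Lhx6 and Gabbr2 against the olfactory bulb marker score (horizontal axis) in the 60 libraries, coloured by treatment (filled circles HT, open squares WT). Calb2 and Dlx1 climb with the score, from 271 and 702 normalized counts at its lower end to 3985 and 3308 at its upper end, and Lhx6 and Gabbr2 descend.

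Per kilobase of exon, the scale on which genes can be set beside each other, the peptides led and Dlx6 closed the order. Over all 60 libraries Sst averaged 6341 ± 1149 normalized counts per kilobase, Cck 5746 ± 967, Npy 4661 ± 422 and Gabbr1 2645 ± 143 (SD). At the low end stood Dlx6 at 57.3 ± 20.9, Gabrg1 at 95.4 ± 13.5, Dlx5 at 103 ± 46.7 and Lhx6 at 108 ± 15.4; Gabrg1, Dlx5 and Lhx6 do not differ beyond their spread. The order depends on the length used: per kilobase of the longest transcript Cck (9385) stood above Sst (6341) and Npy (4661). The low end there was Dlx6 (61.4), Dlx2 (131), Gabrg3 (145) and Lhx6 (149.6). Across libraries the coefficient of variation of the normalized count ran from 5.10% for Gphn, 5.39% for Gabbr1 and 6.47% for Gabra3 to 52.9% for Dlx1 and 79.8% for Calb2, whose highest library had 15.8 times the count of its lowest.

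**Figure D5:**
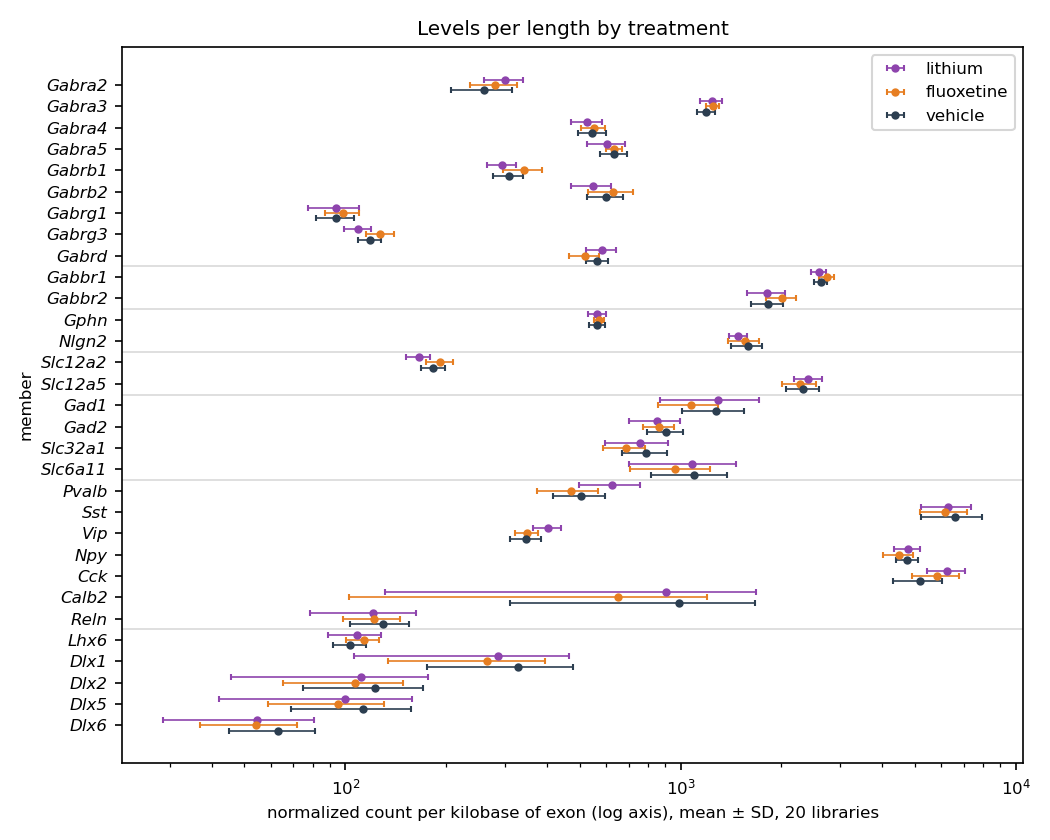
Mean normalized count per kilobase of exon (log scale) of each gene in lithium, fluoxetine and vehicle libraries, with SD over 20 libraries each. Sst, Cck and Npy are the highest and Dlx6 the lowest, and the wide bars belong to Calb2 and the Dlx genes.

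The sexes were also compared separately for each genotype and treatment. Under lithium depth differed between the sexes, so sex and depth cannot be fully told apart there. With lithium, HT males held 7 called members against 13.2% of all genes. Gabra4, Gabrb1, Gabrb2, Gabrg3 and Slc12a2 fell, with log2 fold changes of -0.25, -0.30, -0.43, -0.32 and -0.24, and Vip (0.27) and Cck (0.36) rose (limma adjusted p from 0.0053 to 0.036). Beside these calls, 13 of 17 striatal markers were called lower, with a median log2 fold change of -1.09 over the list. The striatal sum was 16672 to 21826 (median 19266) normalized counts in HT lithium males and 14858 to 41464 (median 36826) in HT vehicle males, and its part in the result was not tested. No member passed in the other 13 comparisons within 1 sex. The background there was 1.75% with lithium in WT males, 0.814% in WT females and 1.23% in HT females, 6.86% with fluoxetine in HT females, and 0.595% in HT males. With fluoxetine it was 0% in WT females and 0.0786% in WT males. For HT against WT it was 0% in females and 0.225% in males under lithium, 0% and 0.0786% under fluoxetine, and 0.00562% and 0.0112% under vehicle. In WT males with lithium 16 of the 31 had an unadjusted p under 0.05, beside 3016 of the 17804 genes tested. Among the 16 members Calb2 had a log2 fold change of -1.81 in WT males, beside 0.85 in WT females, and Dlx1 -1.30 beside 0.45. The olfactory bulb sum was 381 to 2923 (median 712) normalized counts in these WT males and 1816 to 13597 (median 10161) in these WT females, and its part in the result was not tested.

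The tests of a sex difference in drug response by limma called 0 members for fluoxetine and 0 for lithium against 0.0112% of all genes each, and edgeR or DESeq2 called 0. At an unadjusted p under 0.05 were 5 members in each, beside 2090 (fluoxetine) and 1708 (lithium) of the 17804 genes tested. The smallest p-value of a member in these tests was that of Cck with fluoxetine, a log2 fold change of 0.46 with an SE of 0.12 (adjusted p = 0.2, limma) for males less females. Males and females over all groups differed in 0 members by limma against 1.19%, and in 0 by edgeR or DESeq2. At an unadjusted p under 0.05 were 6 members, beside 3504 of the 17804 genes tested. Without the 2 libraries that stood apart 4 passed, against 5.83% of all genes. Gabra2 was lower in males (-0.17, limma adjusted p = 0.023), and Gabrd (0.10, limma adjusted p = 0.028), Slc12a5 (0.13, limma adjusted p = 0.017) and Nlgn2 were higher. HT vehicle male replicate 1, left out here, was the lowest library in Gabrd and Nlgn2 and stood apart as high in Gabra2. Its removal by itself moves the male means of these genes in the directions called. The limma tests of a genotype difference in drug response called 0 members and 0% of all genes for either drug, and edgeR or DESeq2 called 0 members. At an unadjusted p under 0.05 were 0 members for fluoxetine and 1 for lithium, beside 786 and 996 of the 17804 genes tested.

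Beyond the 31 genes, 2 further lists of the same system were counted. Of 27 measured other genes of GABA signalling 4 rose and 3 fell with lithium, and 6 rose and 3 fell with fluoxetine, over both genotypes. These are 25.9% of the list with lithium and 33.3% with fluoxetine, against 22.6% and 14.5% of all genes. Gabarapl1, of the family that traffics receptors, fell with lithium (log2 fold change -0.11 ± 0.025, limma adjusted p = 0.0013), as did Lhfpl4, which gathers GABA-A receptors at synapses (log2 fold change -0.12 ± 0.029, limma adjusted p = 0.0023). Insyn1, a gephyrin-associated protein, rose (log2 fold change 0.15 ± 0.037, limma adjusted p = 0.0017), as did Trak2, a kinesin adaptor (log2 fold change 0.10 ± 0.029, limma adjusted p = 0.0063). With fluoxetine Plcl2, a phospholipase C-like protein (log2 fold change 0.23 ± 0.039, limma adjusted p = 9.1e-05), Stk39, the kinase SPAK that regulates chloride cotransporters (log2 fold change 0.12 ± 0.03, limma adjusted p = 0.0045), and Trak1, a relative of Trak2 (log2 fold change 0.14 ± 0.034, limma adjusted p = 0.0038), rose, and Gabarapl2 (log2 fold change -0.12 ± 0.026, limma adjusted p = 0.00089) fell. Between the drugs 6 were higher and 3 lower with fluoxetine, or 33.3% of the list against 32.9% of all genes, led by Stk39 (log2 fold change 0.19 ± 0.03, limma adjusted p = 1.4e-06), higher in 20 of 20 libraries. Stk39 was lower in libraries labelled HT over all treatments (log2 fold change -0.10 ± 0.024, limma adjusted p = 0.011), the 1 call of this list for that comparison (3.7%, against 5.06% of all genes). The median log2 fold change of the list was -0.0058 with lithium and -0.00082 with fluoxetine.

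Of 33 measured other interneuron genes 3 rose and 6 fell with lithium, and 3 rose and 0 fell with fluoxetine, over both genotypes. These are 27.3% of the list with lithium against 22.6% of all genes, and 9.09% with fluoxetine against 14.5%. Kit, a receptor tyrosine kinase (log2 fold change -0.15 ± 0.029, limma adjusted p = 0.00013), Erbb4, the neuregulin receptor of interneurons (log2 fold change -0.21 ± 0.052, limma adjusted p = 0.0025), and Prox1, a transcription factor of interneurons from the caudal ganglionic eminence (log2 fold change -0.13 ± 0.034, limma adjusted p = 0.0029), fell with lithium. Maf, a transcription factor of interneurons from the medial ganglionic eminence, rose with lithium (log2 fold change 0.12 ± 0.036, limma adjusted p = 0.01) and with fluoxetine (log2 fold change 0.23 ± 0.036, limma adjusted p = 1.5e-05). Calb1, the calcium-binding protein calbindin, also rose with fluoxetine (log2 fold change 0.15 ± 0.051, limma adjusted p = 0.037). Between the drugs 8 were higher and 2 lower with fluoxetine (30.3%, against 32.9% of all genes), among them Erbb4, higher (log2 fold change 0.30 ± 0.052, limma adjusted p = 8.6e-06), and Crhbp, which binds corticotropin-releasing hormone, lower (log2 fold change -0.25 ± 0.045, limma adjusted p = 1.6e-05). Tac1, a tachykinin that striatal neurons also make, fell in libraries labelled HT with lithium (log2 fold change -0.43 ± 0.14, limma adjusted p = 0.031) and with fluoxetine (log2 fold change -0.44 ± 0.14, limma adjusted p = 0.037), where striatal markers were lower too. Their part in it was not tested. Id2, a transcriptional regulator of neurogliaform cells, was lower in libraries labelled HT over all treatments (log2 fold change -0.12 ± 0.025, limma adjusted p = 0.0029), 1 of 33 against 5.06% of all genes. The median log2 fold change of this list was -0.06 with lithium and -0.011 with fluoxetine.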

How the data were processed

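The deposited table holds, per the file headers and the labels, gene-level values for 60 libraries of prefrontal cortex made with a strand-specific poly(A) kit. The tools listed, per the submitters' processing notes, are DESeq2 1.19.11, R 3.6.0 and Salmon 0.11.2 with the GRCm38 build, with no roles given. The deposited values are a signal that the authors had scaled: they are whole reads divided by a size factor (0.85 to 1.25), and 100% of values came out whole within 0.01, giving 25.1 to 36.6 M reads per library. Identifiers were matched to RefSeq symbols (18077 matched, 11 had no symbol), and 0 per-sample columns were left unused.

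The low-count filter required 10 or more normalized counts in 5 or more libraries (17804 genes kept, 284 removed). Limma 3.58.1 in R 4.3.3 was fitted with a mean-variance trend to log2(normalized count + 1), with 12 group means and 48 residual degrees of freedom, and p-values were adjusted by Benjamini-Hochberg over all genes within each comparison. The median SE between averaged groups of 10 libraries was 0.0739 on the log2 scale. The count tests edgeR 4.0.16 and DESeq2 1.42.0 were run on the recovered reads as alternatives, beside other scalings, filters, pseudocounts, covariates and left-out libraries. No 2 libraries held identical values. Values of every library are given for members called in an averaged comparison and for the member with the smallest p in each class, and of the 2 further lists up to 4 called genes with the smallest p per averaged comparison could be named. The members and lists were chosen with earlier results of these data known.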

Additional observations from a re-analysis of the deposited data

Results flagged for a closer look

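In 14 of the 156 groups of 5 libraries tested (the 13 called genes in 12 groups), 1 library lay farther from the other 4 than Dixon's 95% critical value of 0.71 for the gap over the range. Chance alone marks about 1 group in 20. Gabra2 had 2908 normalized counts in HT vehicle male replicate 1, above the 1416 to 1563 of the other 4. Gabrb1 had 2676 normalized counts in WT fluoxetine male replicate 2, below the 4375 to 4949 of the other 4. Gabrb2 had 3172 normalized counts in HT fluoxetine female replicate 2, below the 3883 to 4126 of the other 4. Gabrb2 had 2830.4 normalized counts in HT lithium female replicate 1, below the 3649 to 3966 of the other 4. Gabrb2 had 1929.9 normalized counts in WT fluoxetine male replicate 2, below the 3749 to 4429 of the other 4. WT fluoxetine male replicate 2 and HT vehicle male replicate 1 are the libraries left out together in the counts given above. Leaving out other single libraries moved counts too, as given further on. Gabrg3 had 1556 normalized counts in WT lithium female replicate 5, above the 1185 to 1256 of the other 4. Gabrd had 1278 normalized counts in HT vehicle male replicate 1, below the 1635 to 1774 of the other 4. Gabbr2 had 14635 normalized counts in WT lithium female replicate 5, above the 10068 to 11225 of the other 4. Slc12a2 had 1676 normalized counts in WT lithium female replicate 5, below the 1843 to 1897 of the other 4. Slc32a1 had 1764 normalized counts in WT lithium male replicate 4, below the 1892 to 1941 of the other 4. WT lithium female replicate 5 was set apart in 3 genes. Pvalb had 574 normalized counts in HT fluoxetine male replicate 1, above the 400.3 to 444 of the other 4. Npy had 3008 normalized counts in HT lithium male replicate 3, above the 2485 to 2546 of the other 4. Npy had 2495 normalized counts in WT vehicle male replicate 4, below the 2661 to 2683 of the other 4. Cck had 7025 normalized counts in HT lithium female replicate 4, below the 8791 to 9454 of the other 4.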

How the results depend on the processing

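Of the 29 calls of members in averaged comparisons 0 changed direction under any alternative, 10 were kept under every alternative and with every library left out, 12 were lost with depth as a covariate and 9 with the marker scores as covariates. Depth differs with treatment and, under lithium, with sex, so depth cannot be fully told apart from the drugs or from sex under lithium. Without WT fluoxetine male replicate 2 and HT vehicle male replicate 1 the number of called members was 1 for HT against WT under vehicle, 3 over all treatments, 5 for fluoxetine in HT, 1 in WT, 7 over both genotypes and 4 for males against females. With depth as a covariate it was 0 for fluoxetine in HT, 0 over both genotypes, 0 for lithium in WT, 3 over both genotypes and 1 for males against females. With the marker scores it was 6 for HT against WT over all treatments and 1 for lithium in HT. Fitted on only the libraries compared it was 0 for HT against WT under lithium, 3 for fluoxetine in HT and 1 for lithium in WT. For fluoxetine in HT it was 2 with the filter at 50 and by edgeR and 3 by DESeq2, and for lithium in WT 1 with quantile normalization. The striatal score was related to 3 members without the 2 libraries farthest by group-centred score. The cause of these moves was not tested.

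With 1 library left out at a time the number of called members ran from 0 to 1 for HT against WT under vehicle, 0 to 0 under fluoxetine, 0 to 1 under lithium and 1 to 2 over all treatments. It ran from 0 to 5 for fluoxetine in HT (5 without HT vehicle male replicate 1), 0 to 0 in WT and 1 to 7 over both genotypes (7 without HT fluoxetine male replicate 5). For lithium it ran from 4 to 6 in HT, 0 to 2 in WT and 6 to 7 over both genotypes, and between the drugs from 9 to 11. It was 0 to 0 for each test of a genotype or sex difference in response, and 0 to 4 for males against females (4 without HT vehicle male replicate 1).

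Replicate numbers did not pair the libraries: over 330 pairs with the same number the mean correlation of deviations was 0.00198 (-0.634 to 0.744), 121 were over 0.1, and 10 of 60 libraries correlated best with their own number. With the replicate number as a block the count was the same in all 16 averaged comparisons, for example 6 for lithium over both genotypes.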
